A study of Homo sapiens with 6 samples.

Results

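Progression through the cell cycle was examined here through 45 listed regulators, namely cyclins, cyclin-dependent kinases (CDKs), CDK inhibitors, CDC25 phosphatases, retinoblastoma (RB) family proteins, E2F factors and a few transcription factors of proliferation. The members were taken from the arrays by gene symbol, and 42 of the 45 had a row under their symbol, each with 1 transcript cluster, the array's unit for a gene. The whole table held 21448 transcript clusters, which named 17687 genes. CDKN2C, BTG1 and BTG2 had no row under their symbol. RNA came from MDA-MB-231, a line of human breast cancer cells of the triple-negative kind (without hormone receptors or amplified ERBB2), stably transfected with 2 μg of the pUNO1-hOSM vector (MDA-MB-231-hOSM, 3 arrays) or of the empty pUNO1 vector (MDA-MB-231-hC, 3 arrays). pUNO1-hOSM expresses human oncostatin M (OSM), a cytokine of the IL-6 family. Both lines were kept in DMEM with serum under 10 μg/mL blasticidin and grown side by side, and 3 nonconsecutive passages gave the RNA. The labels number the arrays of each line as sets 1 to 3, read here as those passages. The replicates are passages of 1 transfected population per line as far as the labels tell. The p-values therefore measure how the difference between the 2 populations varied over the sets. An effect of OSM and one of how the populations were transfected and selected cannot be told apart.

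The cycle is driven by CDKs, which act only when bound to a cyclin. In G1, cyclin D with CDK4 or CDK6 and then cyclin E with CDK2 phosphorylate RB1 and its relatives, which releases E2F factors to switch on the genes of S phase. Cyclin A and cyclin B with CDK1 carry the cell through G2 and mitosis, CDC25 phosphatases remove the inhibitory phosphates that WEE1 places on CDKs, and the INK4 and CIP/KIP inhibitors hold the kinases in check. The comparison asks how this machinery differed, at the level of RNA, between cancer cells that made OSM and cells with the empty vector.

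OSM itself, the transfected gene, checked the labels, with log2 signals of 14.90, 14.82 and 14.69 in MDA-MB-231-hOSM and 5.06, 5.11 and 5.26 in MDA-MB-231-hC (sets 1 to 3). All 6 markers fixed for MDA-MB-231, among them VIM, lay above background in both lines, and ESR1 and PGR, hormone receptors that triple-negative cells lack, were in the background range in both. Of 11 leukocyte markers 3 lay above background in MDA-MB-231-hOSM and 2 in MDA-MB-231-hC, and their mean log2 signal per array ran from 5.63 to 5.70 and from 5.59 to 5.67. Of 8 fibroblast markers 2 and 3 did so, with means from 5.46 to 5.59 and from 5.39 to 5.5. The leukocyte markers above background were CD68 (means 12.6 in MDA-MB-231-hOSM and 12.29 in MDA-MB-231-hC), TYROBP (6.4 and 6.03) and, in MDA-MB-231-hOSM alone, CSF1R. The fibroblast markers were COL1A1, COL1A2 (8.74 and 8.85) and, in MDA-MB-231-hC alone, ACTA2. PTPRC, the common leukocyte antigen, was in the background range throughout. Background was read from 349 olfactory receptor genes, whose mean log2 signals had a 95th percentile of 5.77. The deposited values hold almost no difference between the means of the 3 sets, so in each set 1 array lies above its group mean where the other lies below. For that reason the set was kept as a block in the fit, and SDs within a line may leave out spread between passages.

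Many of the listed regulators were lower in MDA-MB-231-hOSM, most by less than 2-fold. At the thresholds of the study's methods, an adjusted p under 0.1 and a change over 2-fold, 5 of the 42 measured members were lower (CCND1, E2F1, MYBL2, E2F8 and CDKN3) and 1 was higher (CDKN1A). Over all transcript clusters 1.57% were called lower and 2.6% higher, or 4.16% in all. At the adjusted p alone 18 members were lower and 5 were higher (42.9% and 11.9%), against 10.4% and 9.22% of all transcript clusters (19.7% in all). The median log2 fold change of the members was −0.26, and that of all transcript clusters −0.03, with 5th and 95th percentiles of −0.63 and 0.67. In 29 of the 42 the groups did not overlap, MDA-MB-231-hOSM being wholly above (8) or wholly below (21) MDA-MB-231-hC, a separation that 50% of all transcript clusters showed (22.2% above and 27.7% below). Without 1 set the fits rest on 2 sets, and 3 to 9 members were then lower and 1 higher at the adjusted p alone. Of all transcript clusters 297 to 584 were lower and 457 to 724 higher in these fits. Of the 23 members past the adjusted p, CCND1, E2F1 and E2F8 passed whichever set was left out. A further 9 passed in some of these fits (CCNB2, CCNE2, FOXM1, MYBL2, RBL1, WEE1, CDKN3, CDKN1A and E2F4), and 11 passed in none (CCNA2, CDK1, CDK6, CDC25A, CDC25C, E2F2, MYC, CDKN1B, E2F5, CCNG1 and CCNG2).

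Split by role, 24 members were activators (cyclins A, B, D and E, CDKs, CDC25 phosphatases, E2F1, E2F2, E2F3, their partner TFDP1, and MYC, MYBL2 and FOXM1). The activators had 12 lower and 1 higher at the adjusted p (50% and 4.17%), with a median log2 fold change of −0.41. The 15 inhibitors (CIP/KIP and INK4 proteins, WEE1, CDKN3, RB family proteins, E2F4, E2F5, E2F7 and E2F8) had 5 lower and 3 higher (33.3% and 20%), with a median of −0.02. The 3 other cyclins had 1 lower and 1 higher. Of all transcript clusters 10.4% were lower and 9.22% higher at the adjusted p. The difference between the roles was not tested. A second split, by the time in the cycle at which a gene's RNA is known to peak, put 20 members into a periodic class, of which 14 were lower, none was higher, and 19 had a negative log2 fold change. The 11 members of G1/S had a median of −0.79 and the 9 of G2/M one of −0.59 (72.7% and 66.7% lower). The 22 not classed had a median of 0.05 with 4 lower and 5 higher (18.2% and 22.7%). Several inhibitors, such as E2F8, CDKN3 and RBL1, are also periodic genes, so the splits by role and by time overlap.

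**Figure D1:**
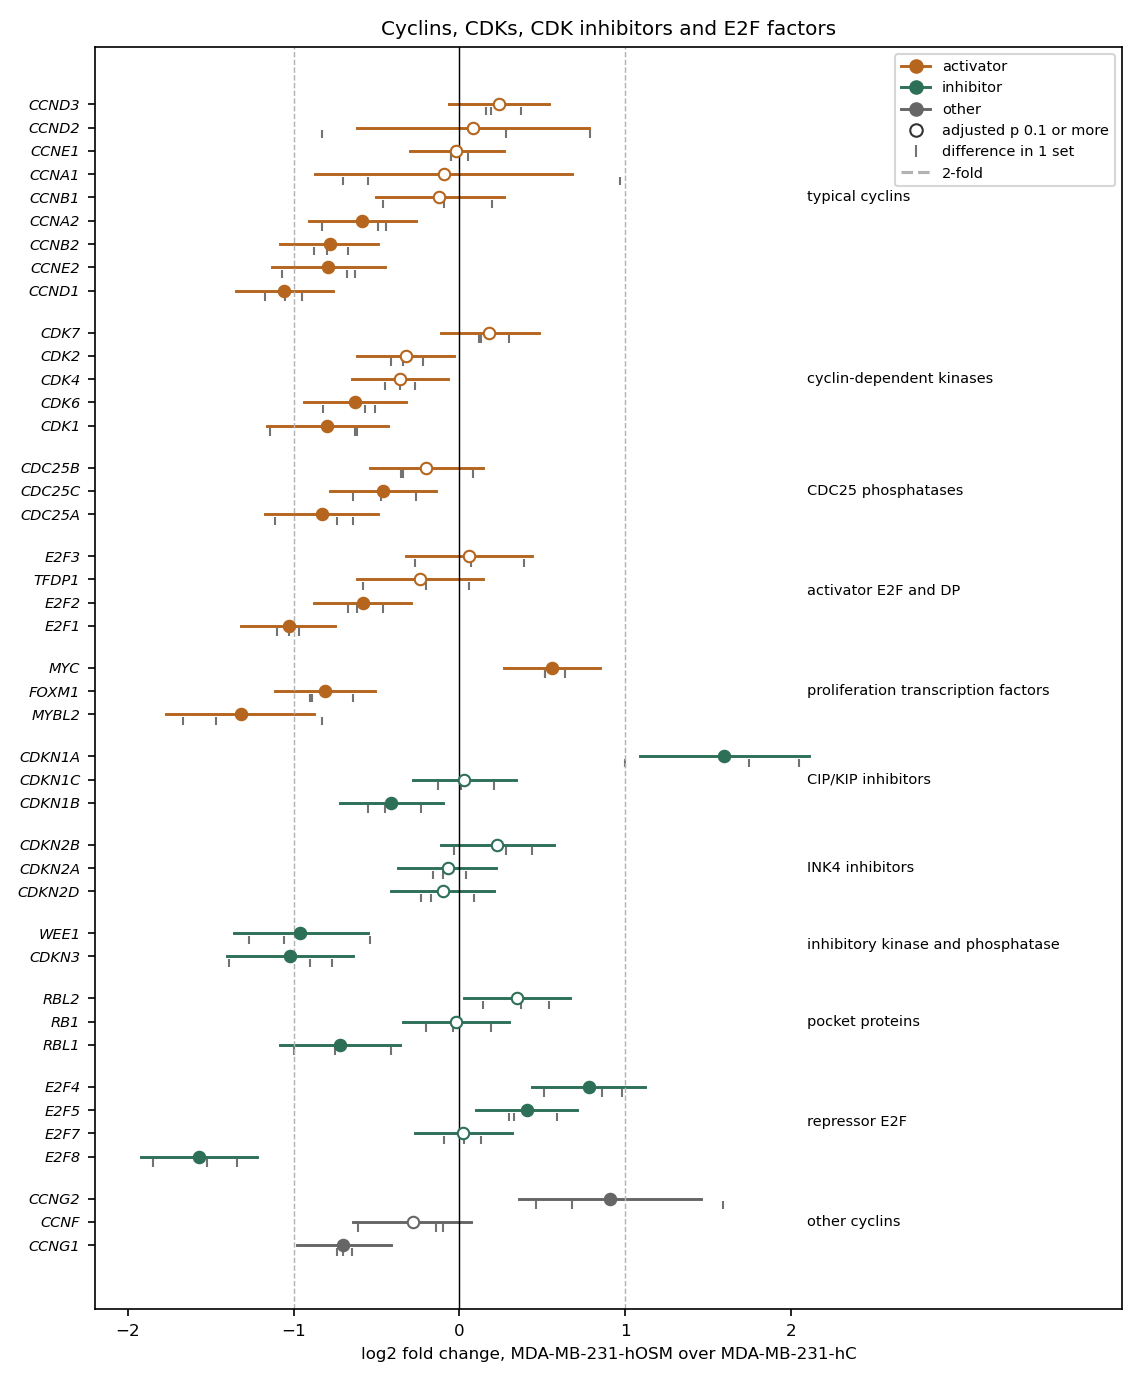
Log2 fold change of MDA-MB-231-hOSM over MDA-MB-231-hC (horizontal axis) for the 42 measured members, in rows by class. Circles are the limma estimates with 95% confidence intervals, filled at an adjusted p under 0.1, ticks are the differences in each of the 3 sets, and dashed lines mark 2-fold. CDKN1A lies farthest to the right at 1.60 and E2F8 farthest to the left at −1.57.

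Promoter sequences of the members were read from the RefSeq table of GRCh38.p14, 250 bases before to 50 bases after the start site. The table held 32 of the 42 members, and the first entry of a gene was used. The letters TTTGGCGC and TTTCGCGC, which E2F factors are known to bind, stood on either strand in 5 of the 13 members that were lower at the adjusted p and had an entry (38.5%), in 1 of 16 that did not pass and in 0 of 3 that were higher. Among all 27305 promoters of that table the share was 1.18%, and among the 14250 of genes named on the arrays 1.61%. The 5 genes are E2F1, E2F2, RBL1, CDC25A and CDK1, all textbook targets of E2F, and they are shown from 120 bases before to 30 bases after the start site, with the CCNB2 promoter as the G2/M example. Capitals mark the E2F letters and CCAAT on either strand, and in CCNB2 the CHR letters TTTGAA, which the DREAM and MuvB complexes are known to bind, and CCAAT, the box of NF-Y. The STAT letters TTCNNNGAA were in 2 of the 32 members (6.25%) and in 7.88% of all promoters. A match of letters is a description and not a bound site.
E2F1, chr20:33686356-33686505, minus strand: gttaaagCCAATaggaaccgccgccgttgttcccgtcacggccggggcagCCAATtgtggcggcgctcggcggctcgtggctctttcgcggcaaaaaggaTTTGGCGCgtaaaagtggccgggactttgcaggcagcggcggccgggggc
E2F2, chr1:23531204-23531353, minus strand: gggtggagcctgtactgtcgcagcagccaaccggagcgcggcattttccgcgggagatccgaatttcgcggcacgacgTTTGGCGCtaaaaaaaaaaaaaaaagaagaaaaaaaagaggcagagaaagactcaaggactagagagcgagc
RBL1, chr20:37095968-37096117, minus strand: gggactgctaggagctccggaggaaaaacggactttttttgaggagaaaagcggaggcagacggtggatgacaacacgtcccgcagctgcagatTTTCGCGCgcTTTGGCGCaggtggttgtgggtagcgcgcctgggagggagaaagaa
CDC25A, chr3:48188388-48188537, minus strand: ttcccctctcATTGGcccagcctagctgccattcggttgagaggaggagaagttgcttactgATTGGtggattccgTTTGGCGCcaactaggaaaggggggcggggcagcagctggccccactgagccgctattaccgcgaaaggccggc
CDK1, chr10:60778211-60778360, plus strand: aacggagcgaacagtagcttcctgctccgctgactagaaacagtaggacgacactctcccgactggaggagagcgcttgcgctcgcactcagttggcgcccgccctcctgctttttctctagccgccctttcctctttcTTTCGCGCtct
CCNB2, chr15:59105026-59105175, plus strand: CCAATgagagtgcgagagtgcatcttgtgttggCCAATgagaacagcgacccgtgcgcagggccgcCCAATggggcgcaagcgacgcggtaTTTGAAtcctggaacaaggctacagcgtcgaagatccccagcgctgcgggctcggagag

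In CCNB2 the CHR letters begin at −29 from the start site, and CCAAT at −54, −87, −120 and −244. The CHR letters searched were TTTGAA and TTCGAA on both strands, which can overlap the STAT letters, and 3 of the 13 lower members held them (23.1%) beside 3 of the 16 that did not pass and 16.6% of all promoters. CCAAT was in 8 of the 13 (61.5%), in 5 of the 16 and in 35.7% of all promoters. GGGCGG, the GC box of SP1, was in 10 of the 13 (76.9%), in 14 of the 16 (87.5%), in all 3 that were higher and in 44.6% of all promoters. Among promoters of genes named on the arrays the shares were 13.4% for CHR, 36.4% for CCAAT and 59.5% for the GC box. The members with no entry in the table were CCND1, CCND2, CCNE2, CDK2, MYC, FOXM1, CDKN1C, WEE1, E2F5 and E2F8.

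**Figure D2:**
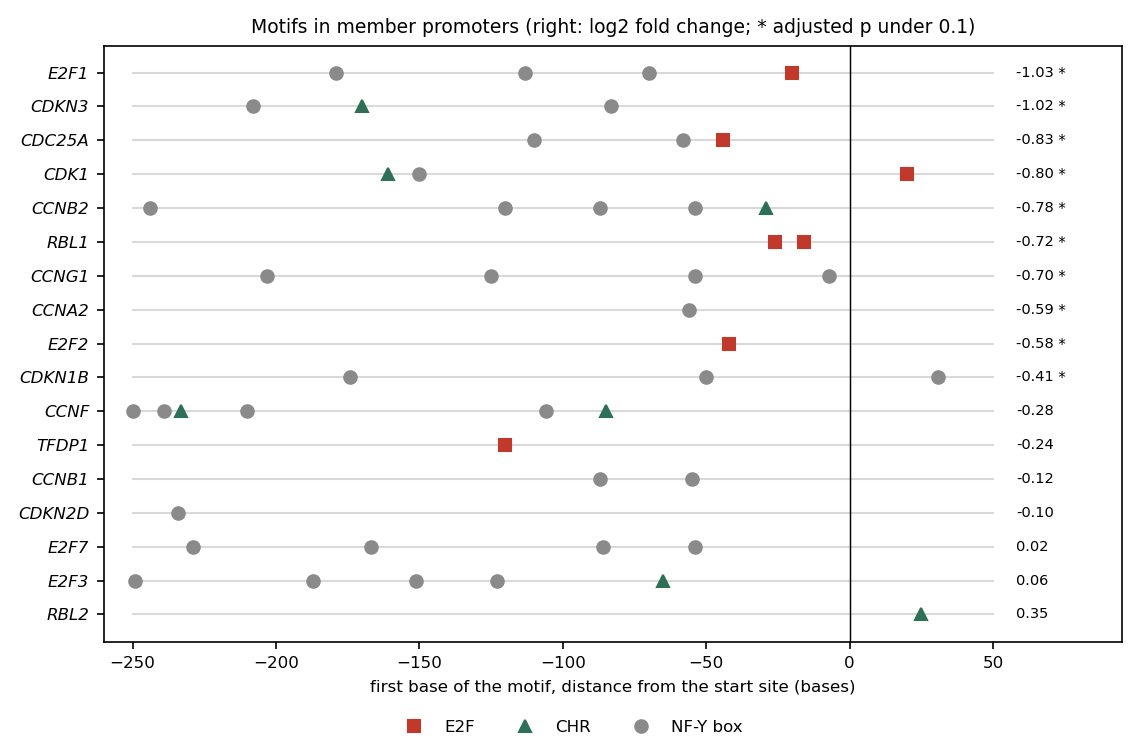
Position of the first base of each motif, in bases from the start site (horizontal axis), for the 17 members whose promoter held E2F, CHR or NF-Y box letters, in rows from the lowest to the highest log2 fold change, which is printed at the right with an asterisk at an adjusted p under 0.1. E2F letters begin between −44 and 20 in E2F1, E2F2, RBL1, CDC25A and CDK1, and at −120 in TFDP1.

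Among the cyclins of G1, CCND1 was lower and its relatives were not called. CCND1 encodes cyclin D1, the partner of CDK4 and CDK6 and an amplified oncogene of breast cancer. Its log2 signals were 13.29, 13.38 and 13.34 in MDA-MB-231-hOSM and 14.46, 14.33 and 14.39 in MDA-MB-231-hC (sets 1 to 3). The groups did not overlap, with a log2 fold change of −1.06 (SE 0.12, adjusted p = 0.0044 in limma), or 2.08-fold lower. Whichever set was left out it still passed, with log2 fold changes from −1.11 to −1.0. CCND2 had arrays from 9.58 to 10.40 in MDA-MB-231-hOSM and from 9.61 to 10.41 in MDA-MB-231-hC, with a log2 fold change of 0.08 whose sign turned without set 2 (−0.27) or set 3 (−0.02). CCND3 had a log2 fold change of 0.24 (95% interval −0.06 to 0.54, adjusted p = 0.254).

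CCNE2 and CCNE1 encode cyclins E2 and E1, the partners of CDK2 at the entry to S phase. CCNE2 had log2 signals of 11.09, 11.03 and 10.84 in MDA-MB-231-hOSM against 11.72, 11.71 and 11.91 in MDA-MB-231-hC. Its 2 groups did not overlap, and it fell by 0.79 (SE 0.14, adjusted p = 0.0192), or 1.73-fold. CCNE1 stood at a mean of 8.54 in MDA-MB-231-hOSM and 8.55 in MDA-MB-231-hC, with a log2 fold change of −0.02 (95% interval −0.30 to 0.27), and its sign turned under quantile normalization (0.02). A difference between the 2 genes in response was not tested.

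Of the cyclins of S phase and mitosis, CCNA2 and CCNB2 were lower at the adjusted p. CCNA2 encodes cyclin A2, which works in S phase and G2, and had log2 signals of 14.40, 14.37 and 14.20 in MDA-MB-231-hOSM and 14.84, 14.86 and 15.03 in MDA-MB-231-hC. It fell by 0.59 (SE 0.14, adjusted p = 0.0411), or 1.5-fold, and did not pass with any set left out (−0.66 to −0.47, adjusted p = 0.141 to 0.199). CCNB2, a mitotic cyclin B, had 11.28, 11.24 and 11.20 in MDA-MB-231-hOSM against 11.95, 12.04 and 12.08 in MDA-MB-231-hC. Its groups did not overlap (SDs 0.040 and 0.067, n = 3 arrays each), and it fell by 0.78 (SE 0.12, adjusted p = 0.0126). CCNB2 passed without set 1 (adjusted p = 0.0808) but not without set 2 or set 3 (adjusted p = 0.11 and 0.126). CCNB1, the other mitotic cyclin B, had arrays that overlapped between the lines (13.37 to 13.68 in MDA-MB-231-hOSM and 13.48 to 13.83 in MDA-MB-231-hC) and a log2 fold change of −0.12 (95% interval −0.50 to 0.27), which was 0.06 without set 3. CCNA1, the cyclin A of the germ line, was spread over 5.71 to 6.68 near background with a log2 fold change of −0.09, and it was 0.13 without set 1 and 0.21 without set 2.

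Of the 5 kinases 2, CDK1 and CDK6, were lower at the adjusted p, and the median log2 fold change of the 5 was −0.36. CDK1, the kinase of mitosis, had log2 signals of 12.43, 12.41 and 12.15 in MDA-MB-231-hOSM and 13.05, 13.04 and 13.29 in MDA-MB-231-hC, and fell by 0.80 (SE 0.15, adjusted p = 0.0238). In set 3 the distance was larger than in sets 1 and 2. CDK6, a partner of cyclin D, had 9.73, 9.74 and 9.59 in MDA-MB-231-hOSM against 10.30, 10.25 and 10.41 in MDA-MB-231-hC, and fell by 0.63 (SE 0.13, adjusted p = 0.0291). CDK4, the other partner of cyclin D, had 12.87, 12.90 and 12.81 in MDA-MB-231-hOSM and 13.23, 13.17 and 13.26 in MDA-MB-231-hC. Its arrays did not overlap, but its log2 fold change of −0.36 missed the threshold (95% interval −0.65 to −0.07, adjusted p = 0.108). CDK4 passed with quantile normalization (0.0963), without the dim transcript clusters (0.0718) and with trend and robust eBayes (0.0211). With no block its adjusted p was 0.00384, but that fit counts degrees of freedom the values do not hold. Over the alternative fits its adjusted p reached 0.311. CDK2 had a log2 fold change of −0.32 (adjusted p = 0.139), and passed without the dim transcript clusters (0.095) and with trend and robust eBayes (0.03). In the fit with no block, which has the same limit, CDK2 had 0.00601, and its highest adjusted p over the alternative fits was 0.354. CDK7, the kinase that activates other CDKs, had a log2 fold change of 0.18 (adjusted p = 0.372).

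Among the CDC25 phosphatases, which activate CDKs, CDC25A and CDC25C were lower at the adjusted p. CDC25A, which acts at the entry to S phase, had log2 signals of 8.25, 8.27 and 8.05 in MDA-MB-231-hOSM and 8.99, 8.91 and 9.16 in MDA-MB-231-hC. It fell by 0.83 (SE 0.14, adjusted p = 0.0172), or 1.78-fold. CDC25C fell by 0.46 (adjusted p = 0.0760), and CDC25B had a log2 fold change of −0.20 (adjusted p = 0.396) with 2 sets below 0 and 1 above it.

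**Figure D3:**
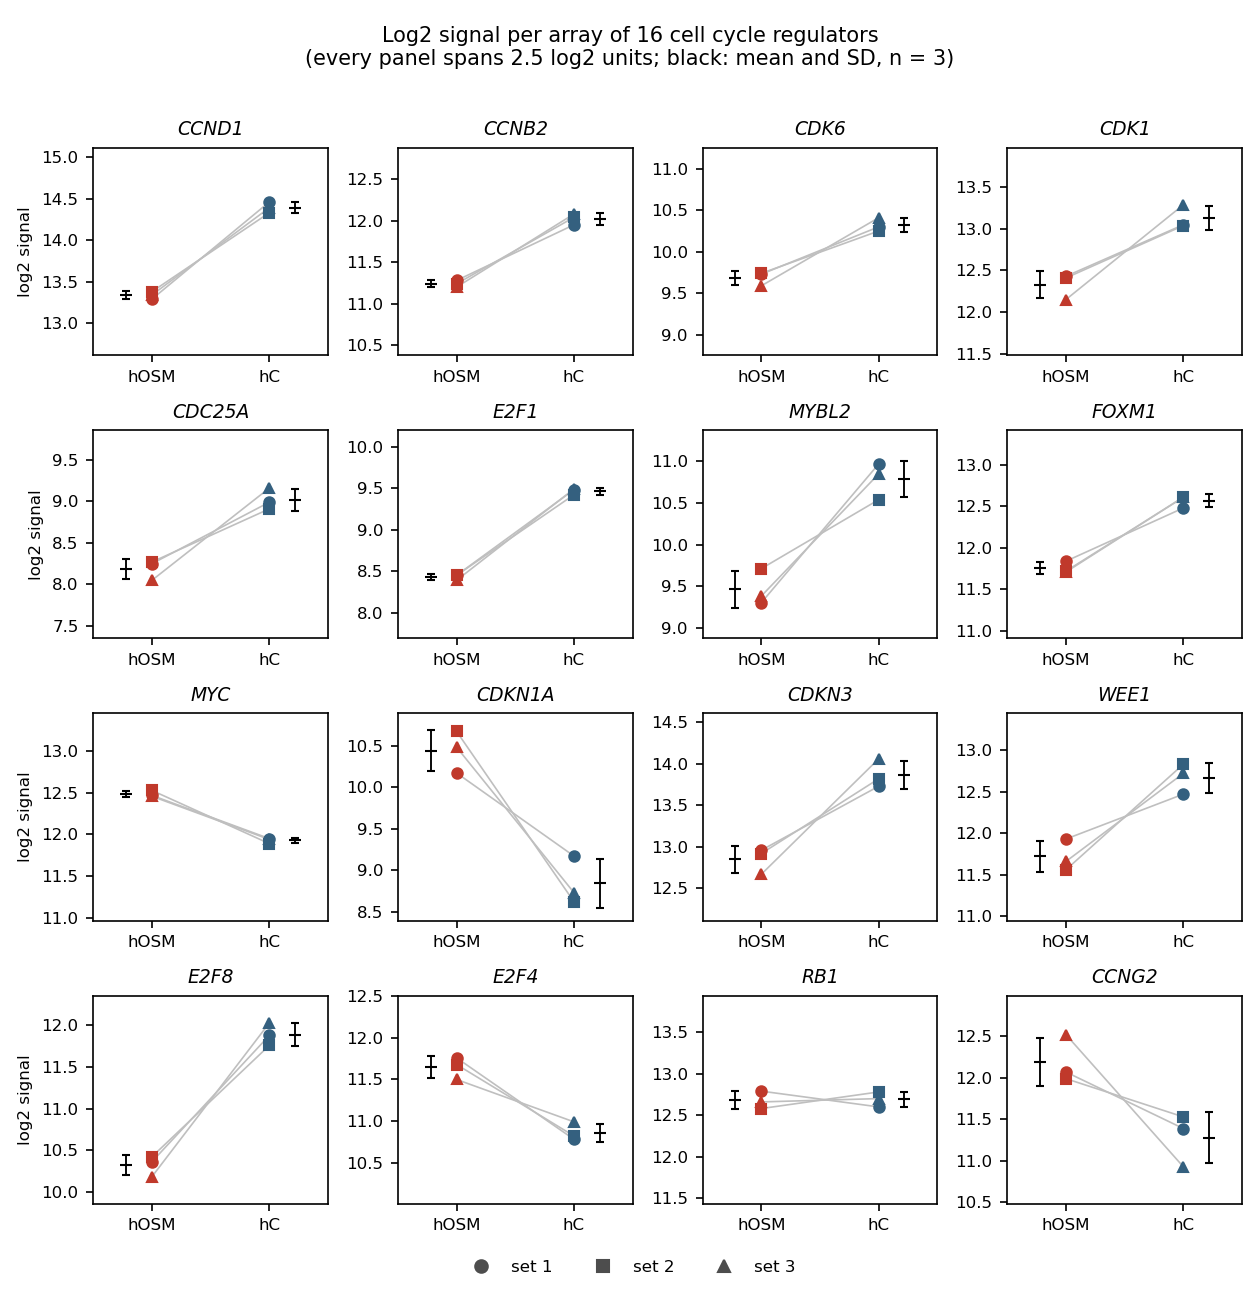
Log2 signal (vertical axis, 2.5 units in every panel) of 16 members in MDA-MB-231-hOSM (red) and MDA-MB-231-hC (blue), with lines joining the arrays of a set and black bars for mean ± SD (n = 3). In 11 panels, from CCND1 to FOXM1 and CDKN3 to E2F8, MDA-MB-231-hOSM lies below MDA-MB-231-hC, in MYC, CDKN1A, E2F4 and CCNG2 above it, and in RB1 the lines cross.

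Of the activating E2F factors, E2F1 was lower by over 2-fold. E2F1 switches on genes of DNA replication, including its own. It had log2 signals of 8.45, 8.45 and 8.39 in MDA-MB-231-hOSM and 9.48, 9.42 and 9.49 in MDA-MB-231-hC. The 3 sets gave nearly the same distance, and E2F1 fell by 1.03 (SE 0.12, adjusted p = 0.00431), or 2.05-fold, with −1.06 to −1.0 when a set was left out. E2F2 had arrays of 6.15 to 6.25 in MDA-MB-231-hOSM and 6.71 to 6.82 in MDA-MB-231-hC, and fell by 0.58 (adjusted p = 0.0320). E2F3 had a log2 fold change of 0.06 (95% interval −0.32 to 0.44), which was −0.10 without set 2, and TFDP1, the partner with which E2F factors bind DNA, one of −0.24 (adjusted p = 0.366).

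The 3 proliferation transcription factors went both ways. MYBL2 encodes B-Myb, which joins the MuvB complex to switch on genes of S phase and mitosis. Its log2 signals were 9.30, 9.71 and 9.38 in MDA-MB-231-hOSM and 10.97, 10.54 and 10.85 in MDA-MB-231-hC, the largest mean difference of an activator. MYBL2 fell by 1.32 (SE 0.18, adjusted p = 0.0086), or 2.5-fold, but without set 3 it no longer passed (−1.25, adjusted p = 0.136). FOXM1, a driver of mitotic genes, had 11.84, 11.72 and 11.71 in MDA-MB-231-hOSM against 12.48, 12.61 and 12.61 in MDA-MB-231-hC, and fell by 0.81 (SE 0.13, adjusted p = 0.0126). MYC, a driver of growth and proliferation, had 12.47, 12.53 and 12.46 in MDA-MB-231-hOSM against 11.95, 11.89 and 11.94 in MDA-MB-231-hC. It was the activator that rose at the adjusted p, by a log2 fold change of 0.56 (SE 0.12, adjusted p = 0.0331), or 1.47-fold, a call that did not hold with any set left out (0.52 to 0.58, adjusted p = 0.144 to 0.161).

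CDKN1A was the member with the largest increase. It encodes p21, a CIP/KIP inhibitor of CDKs and a well-known target of p53. Its log2 signals were 10.17, 10.67 and 10.48 in MDA-MB-231-hOSM and 9.17, 8.62 and 8.73 in MDA-MB-231-hC. The groups did not overlap, and within sets the difference was 1.0 in set 1, 2.05 in set 2 and 1.75 in set 3. The log2 fold change was 1.60 (SE 0.21, adjusted p = 0.00694), or 3.03-fold. Without set 3 it no longer passed (1.53, adjusted p = 0.131). CDKN1B encodes p27, the CIP/KIP inhibitor that restrains cyclin E with CDK2, and had 10.10, 10.17 and 10.26 in MDA-MB-231-hOSM against 10.65, 10.62 and 10.49 in MDA-MB-231-hC. CDKN1B fell by 0.41 (SE 0.13, adjusted p = 0.0923), a call that did not hold with any set left out (−0.50 to −0.34, adjusted p = 0.189 to 0.304). Its estimate had the opposite sign to that of CDKN1A, but a difference between the 2 genes was not tested. CDKN1C had arrays from 5.96 to 6.17 near background in both lines and a log2 fold change of 0.03, which was −0.06 without set 1.

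INK4 proteins bind CDK4 and CDK6, and none of the 3 measured passed. CDKN2A lay at 3.20 to 3.30 in MDA-MB-231-hOSM and at 3.26 to 3.36 in MDA-MB-231-hC, and CDKN2B at 5.33 to 5.58 and at 5.14 to 5.36, all in the background range, so a change there cannot be judged. The CDKN2A locus is known to be deleted in MDA-MB-231. CDKN2D had a log2 fold change of −0.10 (95% interval −0.41 to 0.21). A transcript cluster that the study's supplementary list of changed genes names CDKN2C, the INK4 inhibitor p18, lay outside the counts above. It had log2 signals of 8.0, 8.09 and 8.07 in MDA-MB-231-hOSM and 9.25, 9.17 and 9.19 in MDA-MB-231-hC, a log2 fold change of −1.15 (SE 0.12). Since that list was chosen on these arrays, its change is given as a description.

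WEE1 and CDKN3 act against CDKs, the first as the kinase that phosphorylates them and the second as a phosphatase. WEE1 had log2 signals of 11.93, 11.56 and 11.66 in MDA-MB-231-hOSM and 12.47, 12.83 and 12.72 in MDA-MB-231-hC, and fell by 0.96 (SE 0.17, adjusted p = 0.0189), under 2-fold. Without set 1 it passed both thresholds (−1.17, adjusted p = 0.0477), and without set 2 or set 3 it passed neither (−0.80 and −0.91, adjusted p = 0.141 and 0.173). CDKN3 had 12.96, 12.92 and 12.67 in MDA-MB-231-hOSM against 13.73, 13.82 and 14.06 in MDA-MB-231-hC. It fell by 1.02 (SE 0.16, adjusted p = 0.0123), just over 2-fold, and it no longer passed without set 2 (−1.08, adjusted p = 0.112) or set 3 (−0.84, adjusted p = 0.108).

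Of the RB family, RBL1 was lower and RB1 was not called. RB1, the retinoblastoma protein, had 12.79, 12.58 and 12.66 in MDA-MB-231-hOSM and 12.60, 12.78 and 12.70 in MDA-MB-231-hC. Its arrays overlapped and its log2 fold change was −0.02 (95% interval −0.34 to 0.30), or 0.07 without set 2. RBL1, or p107, itself an E2F target, had 12.37, 12.52 and 12.24 in MDA-MB-231-hOSM against 13.12, 12.93 and 13.24 in MDA-MB-231-hC, and fell by 0.72 (SE 0.15, adjusted p = 0.0321). RBL2, or p130, the member that predominates in resting cells, had a log2 fold change of 0.35 with nonoverlapping arrays (95% interval 0.03 to 0.67, adjusted p = 0.145). Over the alternative fits its adjusted p ran from 0.0167 to 0.408. The lowest value came from the fit without the block, which counts degrees of freedom the values do not hold.

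Among the 4 repressive E2F factors, E2F4 and E2F5 were higher at the adjusted p, E2F8 was lower and E2F7 was not called. E2F4 and E2F5 are known to repress genes together with RBL1 and RBL2 in resting cells. E2F4 had log2 signals of 11.76, 11.68 and 11.50 in MDA-MB-231-hOSM and 10.78, 10.82 and 10.99 in MDA-MB-231-hC, a log2 fold change of 0.78 (SE 0.14, adjusted p = 0.0201), or 1.72-fold, and E2F5 had one of 0.41 (adjusted p = 0.0933). With a set left out, E2F4 passed only without set 3 (adjusted p = 0.0956, against 0.136 and 0.145 without sets 1 and 2). E2F5 passed in none of these fits (adjusted p = 0.224 to 0.282). E2F7 and E2F8 are atypical repressors that cycling cells make in S phase. E2F8 had 10.36, 10.42 and 10.18 in MDA-MB-231-hOSM against 11.88, 11.76 and 12.03 in MDA-MB-231-hC, the lowest fold change of any member. It fell by 1.57 (SE 0.14, adjusted p = 0.00196), or 2.97-fold, and passed whichever set was left out (−1.69 to −1.43). E2F7 had a log2 fold change of 0.02 (95% interval −0.27 to 0.32), or −0.03 without set 3.

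The other cyclins are not classic partners of CDKs in the cycle. CCNG2, a cyclin of cells that leave the cycle, had 12.07, 11.99 and 12.52 in MDA-MB-231-hOSM and 11.39, 11.53 and 10.93 in MDA-MB-231-hC, a log2 fold change of 0.91 (SE 0.23, adjusted p = 0.0503). Its distance in set 3 was the widest. The call did not hold with any set left out, with log2 fold changes of 1.02, 1.13 and 0.57 without sets 1, 2 and 3 (adjusted p = 0.175, 0.141 and 0.174). CCNG1, a target of p53, had 11.26, 11.26 and 11.24 in MDA-MB-231-hOSM against 11.91, 11.96 and 11.98 in MDA-MB-231-hC and fell by 0.70 (SE 0.12, adjusted p = 0.0167), opposite in direction to CCNG2 and to CDKN1A. CCNF, the cyclin of a ubiquitin ligase in G2, had a log2 fold change of −0.28 (adjusted p = 0.266).

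Most genes of the S phase list and of the G2 and M phase list were lower as well, by small amounts. Of 39 measured S phase genes 33 were lower at the adjusted p, none was higher, and all 39 had a negative log2 fold change (median −0.65, from −1.27 to −0.24). Of 49 measured genes of G2 and M phase 32 were lower, none was higher and 47 had a negative log2 fold change (median −0.50). These shares, 84.6% and 65.3%, stand beside 10.4% of all transcript clusters, but only 4 and 2 genes passed the 2-fold limit as well. The 4 were WDR76, CENPU, BLM, a DNA helicase, and MCM2, a subunit of the replicative helicase, with log2 fold changes of −1.27, −1.18, −1.06 and −1.01. The 2 were PSRC1 (−1.13) and CDCA3 (−1.10). MKI67, which encodes the proliferation marker Ki-67, had log2 signals of 14.14, 14.12 and 14.06 in MDA-MB-231-hOSM and 14.50, 14.53 and 14.59 in MDA-MB-231-hC, and fell by 0.43 (SE 0.12, adjusted p = 0.0685), or 1.35-fold. Without 1 set the counts of lower genes were 3 to 12 for S phase and 0 to 10 for G2 and M phase, while those over all transcript clusters were 297 to 584. In RNA of a whole culture, fewer cells in a phase and less RNA per cell cannot be told apart.

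**Figure D4:**
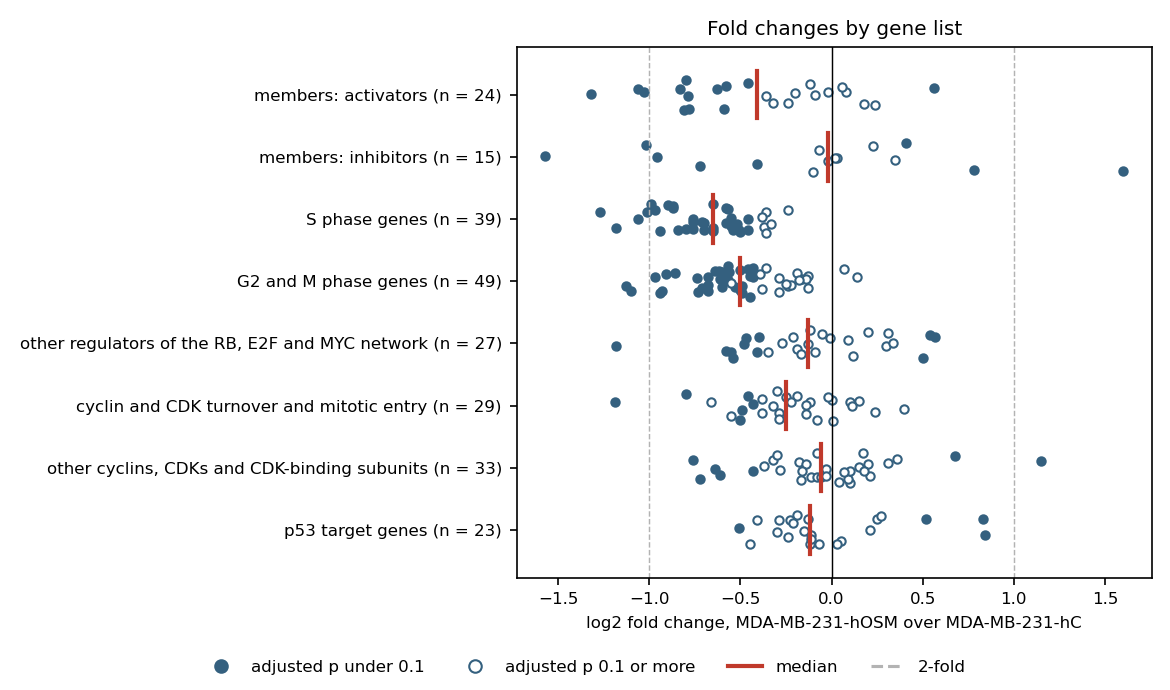
Log2 fold change of MDA-MB-231-hOSM over MDA-MB-231-hC (horizontal axis) for the activators and inhibitors among the members and for 6 further gene lists, in rows. Each point is a gene, filled at an adjusted p under 0.1, and red bars are medians, from −0.65 in S phase genes to −0.02 in the inhibitors.

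Further regulators of the same network were counted at the adjusted p alone, at which 10.4% of all transcript clusters were lower and 9.22% higher. Of 27 in the RB, E2F and MYC network 8 were lower and 3 higher (29.6% and 11.1%, median −0.13). MYBL1, the A-Myb relative of MYBL2, fell by 1.18 (adjusted p = 0.00333), and LIN9, LIN52 and LIN54, subunits of the MuvB core that carries B-Myb, fell by 0.47, 0.54 and 0.55. LIN37, another subunit of that core, had a log2 fold change of 0.30 and did not pass (adjusted p = 0.201), although its MDA-MB-231-hOSM arrays all lay higher. TFDP2, a partner of E2F factors, TOB1, a relative of the BTG proteins, and MXI1, an antagonist of MYC, were the 3 that rose, by log2 fold changes of 0.57, 0.50 and 0.54. Of 33 other cyclins, CDKs and their binding subunits 5 were lower and 2 higher (15.2% and 6.06%, median −0.06). CDK17 passed both thresholds (log2 fold change 1.15, adjusted p = 0.0135). Of 29 genes of cyclin turnover and mitotic entry 6 were lower (20.7%) and none higher (median −0.25), with UBE2S, the ubiquitin-chain enzyme of the anaphase-promoting complex, over 2-fold lower (−1.19, adjusted p = 0.00879). SKP2, the ubiquitin ligase subunit that marks p27 for destruction, fell by 0.80 (adjusted p = 0.0399). Some genes, such as CKS1B and UBE2C, stand in more than 1 of these lists.

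Because CDKN1A is a target of p53, a list of other p53 targets was set beside it. Of 23 measured, 3 were higher and 1 lower at the adjusted p (13% and 4.35%), beside 9.22% and 10.4% of all transcript clusters, none passed the 2-fold limit and the median log2 fold change was −0.12. Those that rose were PMAIP1 and TNFRSF10B, genes of apoptosis, and GADD45B, with 0.84, 0.83 and 0.52, and DDB2 fell by 0.51. GADD45A and GADD45G, relatives of GADD45B on the list, did not pass (−0.30 and −0.12, adjusted p = 0.377 and 0.624). MDM2, a defining p53 target, had a log2 fold change of −0.19 (adjusted p = 0.349).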

How the data were processed

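RNA was hybridized to Human Clariom S arrays. The authors deposited log2 signals, made with the Transcriptome Analysis Console 4.0 and RMA per the submitters' processing notes. For the RMA variant, library version and build: not given in the sources used here. All 21448 transcript clusters of 6 arrays were used as deposited (array medians 6.82 to 6.85). The platform annotation gave 1 symbol to 17709 of them and none to 3739. Where a gene had several, the one with the highest mean was taken. MDA-MB-231-hOSM was compared with MDA-MB-231-hC by limma 3.58.1 in R 4.3.3 (lmFit and eBayes, two-sided, Benjamini-Hochberg over all transcript clusters) with the set as a block. The labels give the same set number to both lines, which were grown in parallel. Within sets the deviations from group means correlated at −0.993, −0.995 and −0.992 across transcript clusters, and set means had a median SD of 0.00764 against 0.225 for the differences within sets, so a fit without the block would count degrees of freedom that the values do not hold. Calls needed an adjusted p under 0.1 and a change over 2-fold.

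Members and gene lists were chosen with earlier results of these data known, so no list was tested as a set. From other lists, at most 4 genes past both thresholds are named, and further ones were named after their values were seen. Values per array are given for members past both thresholds, for those past the adjusted p at 1.5-fold or more, and for CCND1, CDK4, CDK6, CDKN1A, CDKN1B, RB1, MYC and MKI67. CDKN2C was named after its value was seen. Alternatives were no block, quantile normalization, median centring, leaving out 7149 dim transcript clusters, trend and robust eBayes, other thresholds, and sets or arrays left out. The number of arrays limits the precision.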

Additional observations from a re-analysis of the deposited data

How the results depend on the processing

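In the fits with no replicate block, with quantile normalization, with arrays centred on their medians, with 7149 dim transcript clusters left out (41 members stayed) and with trend and robust eBayes, no member's call at both thresholds changed, and the sign changed for CCNE1 alone (0.02 with quantile normalization). At the adjusted p alone, CDK4 and CDK2 gained a call without the dim transcript clusters and with trend and robust eBayes, and CDK4 also with quantile normalization. With no fold limit, 1977 transcript clusters were higher and 2240 lower, with 5 and 18 members, 1 and 12 activators, and 3 and 5 inhibitors. At the adjusted p alone, the fit without the replicate block gave 4530 higher and 5705 lower transcript clusters. It gave 9 higher and 21 lower members, 3 higher and 14 lower activators, and 5 higher and 5 lower inhibitors. That fit counts degrees of freedom the values do not hold. When a set was left out, or 1 array in a fit without the block, 0 to 2 members were called higher and 3 to 6 lower, with 0 to 1 inhibitors higher and 1 to 3 lower. At the adjusted p alone, 457 to 3904 transcript clusters were then higher and 297 to 4808 lower, with 1 to 9 members higher and 3 to 22 lower, 0 to 3 activators higher and 2 to 15 lower, 1 to 5 inhibitors higher and 1 to 5 lower, and 3 to 37 S phase genes and 0 to 40 G2 and M phase genes lower. The low ends come from fits on 2 sets. Log2 fold changes ran from −0.63 to 0.21 for CCNA1, −0.28 to 0.06 for CCNB1, −0.27 to 0.54 for CCND2, −0.10 to 0.23 for E2F3, −0.06 to 0.11 for CDKN1C, −0.12 to 0.07 for RB1 and −0.03 to 0.08 for E2F7, all of which changed sign. Those whose call changed ran from −1.57 to −1.15 for MYBL2, 1.37 to 1.90 for CDKN1A, −1.14 to −0.84 for CDKN3, −1.17 to −0.80 for WEE1 and 0.57 to 1.13 for CCNG2. Each measured member had 1 transcript cluster, so averaging several could not be run. The adjusted-p counts were added after seeing the data. With 3 arrays a line, the number of arrays limits the precision.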
